A study of Mus musculus with 20 samples.

Results

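The Dlk1 to Mirg imprinted locus was followed as the peaks of accessible chromatin that lie on mouse chromosome 12 in the 500 kb from 109350001 (build mm10) in 10 peak lists, 1 for each CTCF genotype. The lists held 431 peaks there. Joined where they overlapped, these made 79 of the 222457 merged regions of the whole series. The stretch was chosen by measured values of these same lists, namely the peaks that were present or missing there in each genotype, so the counts below describe it and test nothing. The nearest merged region outside the window lay 23.6 kb before it and was held by all 10 lists, and the one after it lay 6.33 kb beyond and was held by WT, S354F and Q418R. The outermost regions inside were held by 5 and 4 lists.

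The assay was Omni-ATAC-seq, where a transposase cuts and tags DNA that is accessible, and the cells were E14Tg2a, a mouse embryonic stem cell line of strain 129/Ola kept without feeders and grown with serum, leukemia inhibitory factor, CHIR99021 and PD0325901. All 20 samples carried a degron on endogenous CTCF, were given 500 µM indole-3-acetic acid to remove that protein and 1 µg/ml doxycycline to switch on a Ctcf transgene, and were treated for 2 days. The transgene was wild type (WT) or carried R339Q, R342C, S354F, K365T, R377C, R377H, Q418R, R448Q or H455R, with 2 replicates each. No age applies to a cell line, and no untreated or transgene-free samples were analysed here. The cells are clones derived from that line, and an effect of a substitution and one of the clone that carries it cannot be told apart. The authors combined both replicates of a genotype in 1 list, so no value below has a replicate error and no test between genotypes was possible.

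In this imprinted domain the parental origin of a chromosome sets which genes are active. Dlk1, which encodes a transmembrane protein of the Notch ligand family, and Rtl1, a gene derived from a retrotransposon and needed in the placenta, are expressed from the paternal chromosome. Meg3, Rian and Mirg are noncoding RNA genes expressed from the maternal chromosome, and they host snoRNAs and one of the largest microRNA clusters of the mouse genome. A differentially methylated control region between Dlk1 and Meg3, unmethylated on the maternal chromosome, directs this pattern. CTCF recognises its DNA sites through a row of zinc fingers and halts cohesin there, and serine S354 lies in the fourth of these fingers.

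Per the RefSeq table of GRCm38.p6, Dlk1 spans 109452485 to 109463336, Meg3 109540996 to 109571729, Rtl1 109564900 to 109604418, Rian 109603945 to 109661716 and Mirg 109734981 to 109749458. Rtl1 as annotated overlaps the end of Meg3 and the start of Rian, so only its stretch between these genes was counted as Rtl1. The window holds 90 annotated genes, of which 60 are microRNA genes, 19 snoRNA genes and 2 protein-coding genes. The bounds of the control region are not in that table, so the whole stretch between Dlk1 and Meg3 was described in its place. The peaks do not separate the parental chromosomes or the strands, and in a bulk assay fewer cells with an open site cannot be told apart from a less open site in every cell.

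The promoter windows of the RefSeq table, 250 bases before to 50 bases after an annotated start, are shown for the genes on which the results turn. The table matched Dlk1, Meg3, Rian and Mirg among the members, and Rtl1 was not matched. In the first pair, which show how the peaks sit on an annotated start, capitals mark bases that lie in a merged accessible region. The Dlk1 window is chr12:109452573-109452872 and the window of Gm34081, a noncoding gene between Dlk1 and Meg3, is chr12:109526220-109526519, read on the minus strand.
Dlk1: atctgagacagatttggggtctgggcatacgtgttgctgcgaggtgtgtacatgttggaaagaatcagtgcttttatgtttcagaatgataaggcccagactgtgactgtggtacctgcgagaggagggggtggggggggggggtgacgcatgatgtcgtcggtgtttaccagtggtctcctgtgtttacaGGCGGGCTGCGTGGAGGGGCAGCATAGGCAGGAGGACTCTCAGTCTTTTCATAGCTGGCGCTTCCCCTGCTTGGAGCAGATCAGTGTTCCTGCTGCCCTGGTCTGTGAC
Gm34081: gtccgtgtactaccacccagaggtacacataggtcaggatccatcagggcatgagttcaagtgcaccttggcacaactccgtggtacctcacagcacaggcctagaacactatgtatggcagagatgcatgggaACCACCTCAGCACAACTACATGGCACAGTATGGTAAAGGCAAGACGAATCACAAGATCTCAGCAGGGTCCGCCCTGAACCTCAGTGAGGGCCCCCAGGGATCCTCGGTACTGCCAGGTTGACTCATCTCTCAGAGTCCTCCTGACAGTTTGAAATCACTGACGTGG

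In the next pair capitals mark motif matches. The Meg3 window, chr12:109540746-109541045, holds TGACGTCA, the cyclic AMP response element, from base 194, TATAAA, the TATA box, from base 226 with an overlapping match on the opposite strand from base 222, and TGCCGC, the hexamer bound by the imprint factor ZFP57, on the opposite strand from base 61. The Rian window, chr12:109603695-109603994, holds a CTCF core (CC, any 3 bases, AGG, any base, GGC) from base 258.
Meg3: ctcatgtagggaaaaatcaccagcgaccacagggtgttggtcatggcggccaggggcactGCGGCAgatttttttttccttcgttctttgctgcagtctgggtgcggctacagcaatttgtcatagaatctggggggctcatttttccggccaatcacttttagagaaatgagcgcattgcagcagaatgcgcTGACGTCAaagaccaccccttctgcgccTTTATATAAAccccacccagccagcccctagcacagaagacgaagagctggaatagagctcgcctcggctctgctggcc
Rian: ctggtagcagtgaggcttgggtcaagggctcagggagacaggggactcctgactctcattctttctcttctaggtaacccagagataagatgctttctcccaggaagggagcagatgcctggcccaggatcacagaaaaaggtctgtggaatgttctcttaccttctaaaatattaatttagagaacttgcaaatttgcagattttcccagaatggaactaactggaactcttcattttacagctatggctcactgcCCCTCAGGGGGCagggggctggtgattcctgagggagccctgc

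These letters were searched on both strands of all 32851 promoter windows of the RefSeq table. The cyclic AMP response element was found in 1.79% of the windows, the TATA box in 13.6%, the ZFP57 hexamer in 11.6% and the CTCF core in 3.43%. The motifs were chosen with the sequences and the peaks already seen. A match is a description and shows no binding. None of the 10 lists had a peak on the Rian window that carries the CTCF core. The same held for the windows of Mirg, Gm34017 and 6430411K18Rik, another Meg3 window and all Gm34081 windows but the printed one. The printed Dlk1 and Meg3 windows each overlapped a peak in 1 list. Over the genome 48% (R339Q) to 51.2% (R448Q) of all promoter windows overlapped a peak.

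The microRNAs whose hairpin lay in a peak of at least 4 lists are shown with their seed, bases 2 to 8, in capitals, since they mark which parts of the cluster were accessible. The last sequence, of the neighbouring Mir381, is set beside miR-300-3p.
mmu-miR-127-5p: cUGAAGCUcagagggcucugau
mmu-miR-127-3p: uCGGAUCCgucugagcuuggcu
mmu-miR-370-5p: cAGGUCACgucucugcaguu
mmu-miR-370-3p: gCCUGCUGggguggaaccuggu
mmu-miR-300-5p: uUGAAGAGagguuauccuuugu
mmu-miR-300-3p: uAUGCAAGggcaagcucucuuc
mmu-miR-487b-5p: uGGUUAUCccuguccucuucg
mmu-miR-3072-5p: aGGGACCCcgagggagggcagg
mmu-miR-3072-3p: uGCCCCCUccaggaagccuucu
mmu-miR-381-3p: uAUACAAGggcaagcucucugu

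The 112 mature microRNAs of the window in the RefSeq table have 102 different seeds, and 9 seeds are shared by more than 1 name. Among the sequences above, miR-370-5p shares its seed AGGUCAC with miR-1193-3p of the same cluster. From miR-381-3p to miR-300-3p the differences, counted from 1 at the 5′ end, are A4G in the seed and G21U and U22C outside it.

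S354F held far fewer peaks in the locus than any other list. WT had 62 peaks there, R377C 53, R377H 52, H455R 52, R342C 46, Q418R 44, K365T 37, R448Q 37, R339Q 31 and S354F 17. Per 100000 peaks of a list this made 36.1 in WT, 25.4 (R448Q) to 35.5 (R377H) in 8 mutants and 12.1 in S354F, so S354F was also the lowest relative to the length of its list. Peaks covered 26189 bp of the window in WT, 12408 bp (R339Q) to 23793 bp (R377C) in those mutants and 7484 bp in S354F. The map of the locus shows the S354F row with the fewest bars.

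**Figure D1:**
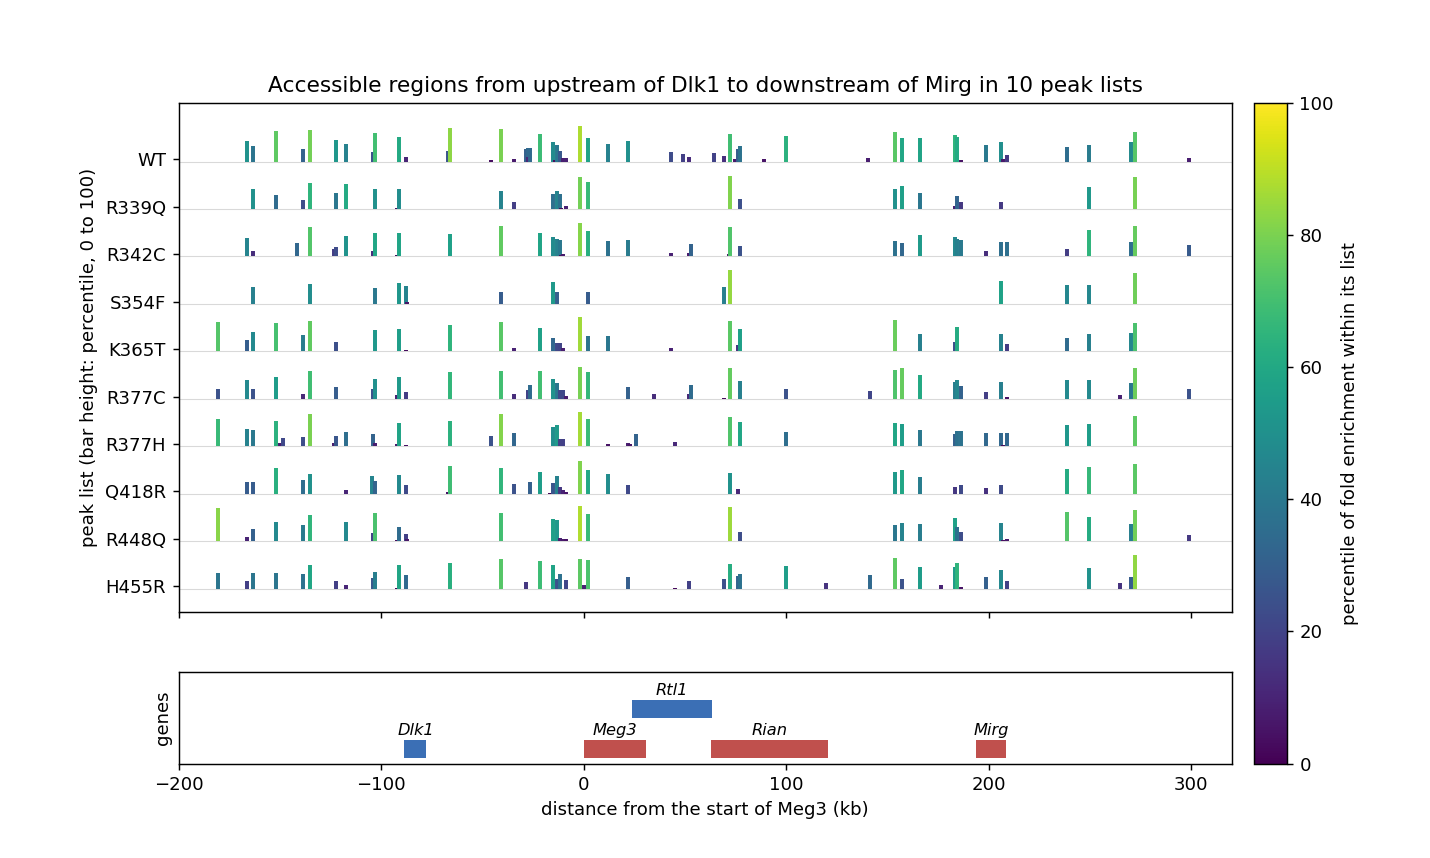
Merged accessible regions of the locus in 10 peak lists, drawn by distance from the start of Meg3 in kb (x axis), with genes below (blue, expressed from the paternal chromosome; red, from the maternal one). Bar height and colour give the percentile of the fold enrichment within its own list; S354F holds 16 of the 79 regions and no region between Rian and Mirg.

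As background to these counts, the lists ranged from 121032 (R339Q) to 171719 (WT) peaks. Background coverage, a measure of depth read from the steps of the fold values, was 5.96 in WT, 5.45 in R448Q, 3.49 (K365T) to 4.66 (H455R) in the other mutants and 4.4 in S354F. The peak names of each list carry a pair of numeric codes, whose meaning the sample labels do not give. The codes are consecutive in 8 lists and lie 28 apart in WT and 42 apart in K365T. Those of S354F are 144 and 145. All 8 stem cell markers examined, among them Pou5f1, Nanog and Esrrb, had a peak within 1 kb of an annotated gene end in all 10 lists. Fibroblast markers had one in 4 (R339Q) to 6 of 6 genes, with 5 in S354F and 6 in WT, and primitive endoderm markers in 1 or 2 of 3 genes, with 2 in both S354F and WT. Among all 21631 protein-coding genes the share with such a peak was 68.3% (R339Q) to 71.6% (WT). These counts of few genes therefore do not establish a cell type.

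Of the 62 WT peaks in the locus, 45 had no overlapping peak in S354F (72.6%, exact Clopper-Pearson 95% interval 59.8 to 83.1), where the share over all 171719 WT peaks was 24.3%. R339Q lacked 32 (51.6%, 38.6 to 64.5, against 35.1%), K365T 27 (43.5%, 31 to 56.7, against 28.3%) and R448Q 25 (40.3%, 28.1 to 53.6, against 27.7%). Q418R lacked 24 (38.7% against 30.8%), R342C 21 (33.9% against 26.1%), R377H 20 (32.3% against 26%), H455R 18 (29% against 19.3%) and R377C 14 (22.6% against 20.9%). In these last 5 mutants the genome-wide share lay inside the interval for the locus, and in R448Q (27.7%) it lay just below the low end of 28.1. With every list limited to its 121032 strongest peaks, the locus had 39 WT peaks, and S354F lacked 64.1% of them (against 16% over the genome). R339Q then lacked 35.9% (against 21.6%), R448Q 33.3% (against 21.4%), R342C 25.6% (against 17.5%) and R377C 17.9% (against 15.6%). K365T, Q418R, R377H and H455R each lacked 23.1% (against 18.5%, 18.9%, 19.1% and 16.2%), so the shares of K365T and Q418R moved by over 1.5 times. The intervals cover counting error over peaks only, and neighbouring peaks may not be independent. The locus was also chosen by these same values, so whether an interval holds the genome-wide share is no test.

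**Figure D2:**
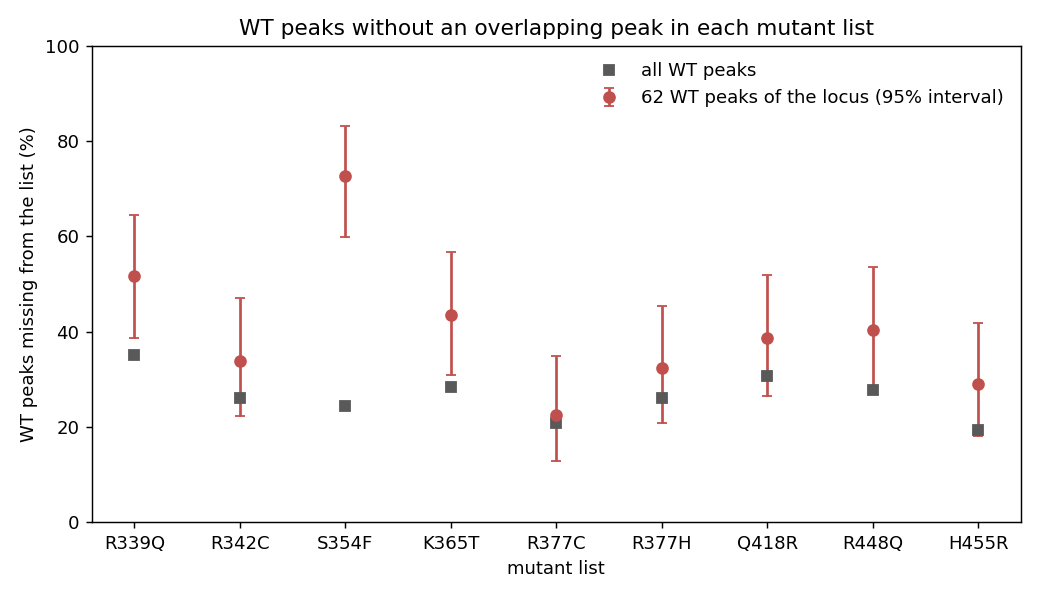
Share of WT peaks with no overlapping peak in each mutant list (y axis, percent), for the 62 WT peaks of the locus (circles, bars are exact 95% binomial intervals over peaks) and for all WT peaks (squares). The S354F circle is at 72.6% and its square at 24.3%.

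Strong sites were missing from S354F as well as weak ones. The locus held 19 peaks of the stronger 50% of the WT list, ranked by fold enrichment, and S354F lacked 12 of them (63.2%), where 5.24% of all WT peaks of that strength were missing. R339Q and R448Q lacked 4 of the 19 (against 10.8% and 8.09%), Q418R 3 (against 7.8%), R342C and K365T 2 (against 5.46% and 6.19%), R377H 1 (against 5.82%), and R377C and H455R 0 (against 3.59% and 3.24%). Among the 43 weaker WT peaks S354F lacked 33 (76.7% against 43.4%), R339Q 28 (65.1% against 59.4%) and K365T 25 (58.1% against 50.5%). The other counts were 21 in Q418R (against 53.8%), 21 in R448Q (against 47.2%), 19 in R342C (against 46.8%), 19 in R377H (against 46.2%), 18 in H455R (against 35.5%) and 14 in R377C (against 38.3%).

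The comparison was also made without WT as the reference. Of the 25 regions of the locus that at least 8 of the 9 other lists held, S354F lacked 13 (52%), where it lacked 2.36% of such regions over the genome. R339Q, R342C and K365T each lacked 3 of 20 such regions (against 8.21%, 2.63% and 4.87%), Q418R 2 of 19 (against 7.36%) and H455R 1 of 18 (against 2.01%). WT, R377C, R377H and R448Q lacked 0 of 17 (against 0.836%, 0.937%, 2.67% and 4.92%). Of the 79 regions, 12 were held by all 10 lists (15.2%, against 36.5% of all merged regions) and 5 by all lists but S354F (6.33%, against 0.34%). None was held by all lists but 1 of the other 9.

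The peak counts were then taken by stretch of the locus. Between Rian and Mirg S354F had 0 peaks where WT had 9 and the other mutants 5 (K365T) to 9 (H455R). In the stretch between Dlk1 and Meg3 it had 3, against 17 in WT and 7 (R448Q) to 15 (Q418R) in the others. It had 1 peak in Meg3, 2 in Rian, 1 in Mirg and 0 in Rtl1 beyond Meg3, while WT had 3, 8, 3 and 3. In these 4 stretches R339Q had the same counts as S354F, and R448Q had 1, 2, 2 and 0. Of the 14 WT peaks in Meg3, Rian and Mirg, S354F and R339Q each lacked 10 (71.4%, against 24.3% and 35.1% of all WT peaks). R448Q lacked 9 (64.3% against 27.7%) and K365T 8 (57.1% against 28.3%). R342C and Q418R lacked 7 (50%, against 26.1% and 30.8%), R377C and R377H 6 (42.9%, against 20.9% and 26%) and H455R 4 (28.6% against 19.3%). Most of these 14 peaks were in the weaker 50% of the WT list, where the genome-wide shares missing were higher. Those shares were 43.4% in S354F, 59.4% in R339Q, 47.2% in R448Q, 50.5% in K365T and 46.8% in R342C. They were 53.8% in Q418R, 38.3% in R377C, 46.2% in R377H and 35.5% in H455R. In the 102 kb before Dlk1 S354F had 5 peaks against 11 in WT, and in the 101 kb after Mirg 3 against 7. Dlk1 was the exception, with 2 peaks in S354F and 1 in WT.

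**Figure D3:**
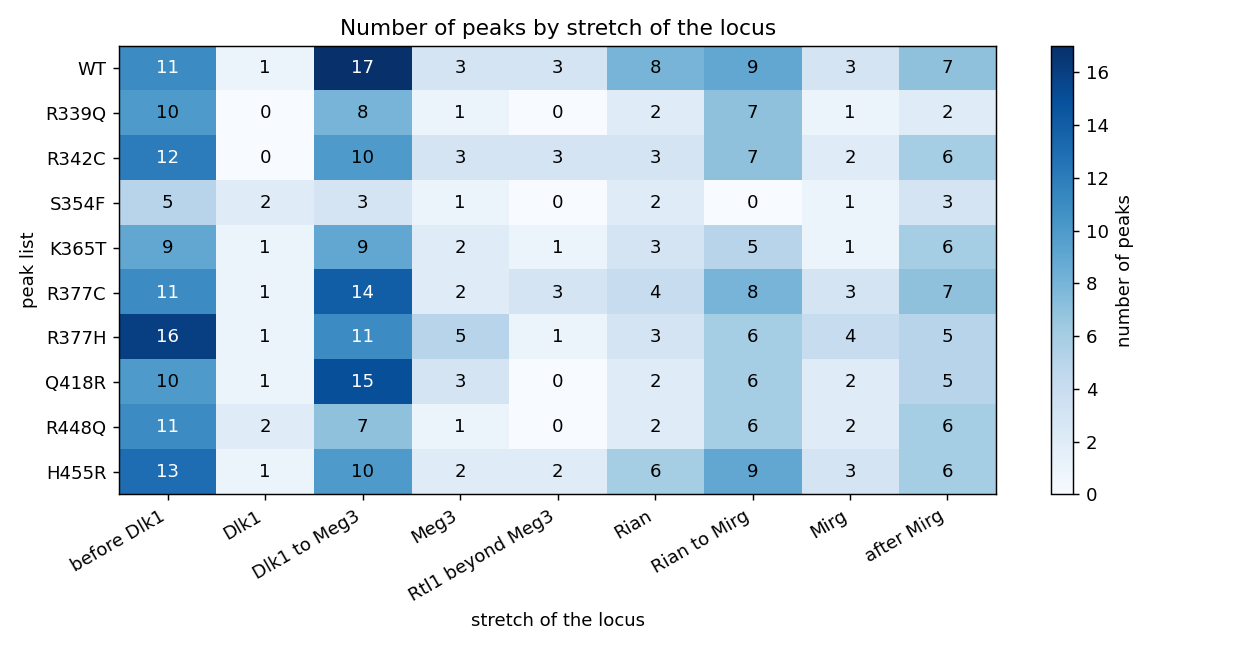
Number of peaks (colour and printed count) in each of 9 stretches of the locus (x axis, in order along the chromosome) for the 10 peak lists (y axis). S354F has 0 peaks between Rian and Mirg and 3 between Dlk1 and Meg3, where WT has 9 and 17.

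The paternally expressed Dlk1 carried a peak just inside its annotated start (109452764 to 109453401) in 8 lists, S354F included. This region stood at the 44.6th percentile of its list in S354F, the 33.9th in H455R, the 22.3rd in Q418R, the 18.7th in R448Q, the 17.4th in R377C, the 10.2nd in WT, the 3.98th in R377H and the 3.12th in K365T, and R339Q and R342C held no peak there. S354F thus held the Dlk1 start peak although it had the fewest peaks in the locus. Lists differ in length and depth, so a percentile gives the place of a peak in its own list and no change between lists is read from it. A further region inside Dlk1 (109453586 to 109453968) was held by S354F and R448Q only, at the 5.33rd and 6.33rd percentiles. Only the R448Q peak reached the Dlk1 promoter window printed above, at its 3′ end.

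Rtl1, the other paternally expressed gene, had no peak that all lists shared. A region at 109592469 to 109593119, which also holds the microRNA gene Mir127 on the strand opposite to Rtl1, was held by WT (12.1st percentile), R342C (7.44th), R377C (11.4th) and H455R (19.5th). The WT peak at 109583993 to 109584244 was found in R342C and K365T, and the WT peak at 109589995 to 109590322 in none of the 9 mutants. S354F, R339Q, Q418R and R448Q had 0 peaks in this stretch. No peak of this stretch stood above the 34.7th percentile of its list.

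No site between Dlk1 and Meg3 is placed in or outside the control region, whose bounds are not in the annotation used. The strongest WT site of the whole locus lay in this stretch, centred at -1.89 kb from the start of Meg3 (109538714 to 109539500). This site was missing from S354F alone. It stood at the 87.8th percentile of the WT list (fold 10.6), the 88.2nd in R448Q, the 86.4th in R377H, the 85.6th in K365T, the 81.9th in R342C, the 81st in Q418R, the 79.3rd in R377C, the 78.7th in R339Q and the 74.8th in H455R. Every list but S354F thus ranked it among its stronger peaks. In the locus 6 of 62 WT peaks were missing from S354F alone, against 0.466% genome-wide. None of the 62 was missing from another mutant alone, where the genome-wide shares were 2.26% (R339Q), 2.07% (Q418R), 1.19% (K365T), 1.17% (R448Q), 0.543% (R377H), 0.509% (R342C), 0.424% (H455R) and 0.16% (R377C). Missing from all 9 mutants were 6 of 62, against 5.42%, and found in all 9 were 13, against 48.5%.

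The second strongest WT site, centred at -66 kb (109474648 to 109475430, 82.9th percentile), was absent from S354F, R339Q and R448Q and stood between the 56.7th (R342C) and the 69th (Q418R) percentile in the other 6 mutants. A site at 109519161 to 109519778 (68th percentile in WT) was absent from the same 3 lists and from R377H. The site at 109499596 to 109500692 was held by all 10 lists, at the 79.8th percentile in WT, the 81.4th in R377H, the 75.6th in R342C, the 74th in K365T, the 73.6th in H455R, the 69.7th in R377C, the 69.6th in R448Q, the 65.3rd in Q418R, the 44.7th in R339Q and the 28.7th in S354F. S354F thus kept this peak, at the lowest of these within-list percentiles.

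Between the site at 109519161 and the one centred at -1.89 kb, weaker peaks differed from site to site. The region at 109525657 to 109526385, which reaches into the Gm34081 promoter window printed above in 7 lists but not in S354F, R342C or K365T, was held by all 10 lists, from the 26.4th percentile (Q418R) to the 58.2nd (H455R), with S354F at the 53.6th and WT at the 47.8th. The region at 109527402 to 109527766 was also held by all 10, from the 21.6th (K365T) to the 54th (R377H), with S354F at the 29.8th. Next to them, the region at 109528811 to 109529368 was held by all lists but S354F, at 8.75 (R448Q) to 40 (R342C) on the same scale. The WT peak at 109526545 to 109526766 (3.82nd percentile) was found in no mutant.

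Of the 5 members, 4 in H455R, 3 in WT and R377H, 2 in K365T, R377C and R448Q, 1 in R342C, S354F and Q418R and 0 in R339Q had a peak within 1 kb of an annotated end. Among all 49554 annotated genes the shares were 49.6% in H455R, 50.4% in WT, 48.7% in R377H, 47.7% in K365T, 49.2% in R377C, 49% in R448Q, 48% in R342C, 48.2% in S354F, 46.6% in Q418R and 45.9% in R339Q. Meg3 had a peak within 1 kb of an annotated end in H455R only (8.9th percentile), where it covered 203 bases of the promoter window printed above with the cyclic AMP response element and the TATA box. Rian had one in H455R only (14.2nd percentile), at its annotated end. Rtl1 had one in WT (19.9th) and R377H (5.01st), and Mirg one in 7 lists, at 4.53 (R377C) to 36.3 (R342C), absent from S354F, R339Q and Q418R. The region centred 1.98 kb after the start of Meg3 (109542717 to 109543242) was held by all 10 lists, at 57.6 in WT, 37.9 (K365T) to 71.6 (H455R) in 8 mutants and 28.7 in S354F.

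Inside Rian, the host of many C/D snoRNAs, 1 site stood apart from the rest in S354F. The region at 109612879 to 109613253 was held by all 10 lists and stood at the 84.3rd percentile in S354F, where it was the highest peak of the locus. Other lists had it at the 85.3rd (R448Q), 81.1st (R339Q), 75.9th (R377C), 74.5th (K365T), 72.3rd (R342C), 72.3rd (R377H), 69.4th (WT), 62.3rd (H455R) and 50.6th (Q418R). The region at 109609851 to 109610346 was held by S354F (43.1st), H455R (24.4th), WT (13.3rd) and R377C (2.41st). S354F kept 2 of 8 WT peaks in Rian, as many as R339Q, R342C, Q418R and R448Q. The WT peak at 109640585 to 109640883 (63.9th percentile), further into the gene, was found in R377C, R377H and H455R only, and those starting at 109605224, 109615461 and 109629985 were found in no mutant.

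The stretch from Rian to Mirg, which carries snoRNA genes and the larger of the microRNA clusters, held no S354F peak. All 9 WT peaks there were missing from S354F, and those starting at 109694808 (74.2nd percentile), 109706204 (58.1st), 109707298 (45.7th) and 109724216 (64.9th) were missing from S354F alone. Q418R lacked the peak starting at 109725289 (60.6th) as well, K365T lacked those starting at 109698260 (59.1st) and 109727159 (4.84th), the one starting at 109697895 (33.5th) was found in R377C, R377H and H455R only, and the one starting at 109681452 (7.87th) was found in no mutant. The longest run without a peak was 133 kb in S354F, from 109613217 in Rian to 109746674 in Mirg. It was 76.5 to 77.4 kb in R339Q, R342C, K365T, Q418R and R448Q and 39.7 (H455R) to 54 kb (R377H) in WT, R377C, R377H and H455R. In these 5 mutants and in R377H the run ended at the site at 109694787 to 109695141, which every list but S354F held.

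Mirg, the host gene of the last part of the microRNA cluster, kept 1 of its 3 WT peaks in S354F, as in R339Q and K365T. That region, at 109746624 to 109747496, was held by all 10 lists, at 57.8 in S354F, 49.3 in WT, 46.6 in H455R, 45.3 in R448Q, 44.3 in K365T, 42.9 in R377C, 36 in R342C, 33.5 in R377H, 22.5 in Q418R and 16.5 in R339Q. S354F was the highest of the lists at this site. The region at 109739324 to 109740044 was held by 6 lists and the one at 109747778 to 109748276 by 4, S354F in neither.

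No microRNA hairpin of the locus lay in an S354F peak. Of the 57 microRNA genes in the window that have a hairpin entry in the RefSeq table, 9 overlapped a peak in H455R, 5 in WT, R377H and R448Q, 4 in R342C and R377C, 3 in R339Q, 1 in K365T, 2 in Q418R and 0 in S354F. Mir666, Mir544 and Mir1906-1 have no such entry and are not in these counts, and the gene Mir666 overlaps the same H455R peak as Mir543. Among all 1005 mouse hairpins the shares in a peak were 17.1% in S354F, 18.5% in WT, 18.6% in H455R, 17.4% in R448Q, 17.2% in R377C and R377H, 16.7% in R342C, 16.1% in K365T, 15.2% in R339Q and 14.8% in Q418R. Mir300 was in a peak in all lists but S354F, and Mir487b in all but S354F and K365T. Mir370, inside Rian, was in a peak in WT, R339Q, R342C, R448Q and H455R. Mir127 overlapped one in WT, R342C, R377C and H455R, and Mir3072, inside Mirg, in WT, R377H, R448Q and H455R. Mir381, whose 3p arm resembles that of Mir300 as printed above, lay in an R448Q peak only. These are counts of few hairpins, and the difference between lists was not tested.

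The sites that S354F kept were mostly those that every list held, which was also the case over the genome. It held 16 of the 79 regions, 12 of them in all 10 lists, and the other 4 were the pair of regions in Dlk1, the one at 109609851 in Rian and one after Mirg (109779434 to 109779738, 46.1st percentile, absent from R339Q and H455R). Every list holds those 12 by definition, and the lists other than S354F held 17 (R339Q) to 46 (WT) further regions. Over the genome, 36.5% of all merged regions were held by all 10 lists. S354F held 60.8% of all merged regions, within the range of the other mutants, 51.6% (R339Q) to 68.4% (H455R). Most regions that S354F held over the genome were thus in all 10 lists as well. Before Dlk1 it shared with all lists the regions at 109377675, 109405629, 109437518 and 109449258. The other lists held 29 (R339Q) to 58 (WT) of the 79.

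Peaks without a WT counterpart were few and mostly weak. R377H had 12 of 52 (23.1%, against 12.1% of its whole list), H455R 10 of 52 (19.2% against 13.1%), R377C 7 of 53 (13.2% against 10.8%), Q418R 6 of 44 (13.6% against 7.97%), R342C 6 of 46 (13% against 9.77%), R448Q 3 of 37 (8.11% against 14.8%), R339Q 2 of 31 (6.45% against 7.14%), K365T 2 of 37 (5.41% against 8.94%) and S354F 1 of 17 (5.88% against 8.82%). As a description and no test, each of these genome-wide shares lay inside the interval over peaks for the locus except that of R377H. That share lay just below its interval (12.5 to 36.8). The strongest was a site at -181 kb from the start of Meg3 (109360237 to 109360582), held by R448Q (82.4th percentile), K365T (73.4th), R377H (67.2nd), H455R (39th) and R377C (25th) and absent from WT, S354F and 3 others. Another, between that site and Dlk1 (109448408 to 109449049), was held by 6 mutants at 0.855 (H455R) to 9.27 (R377C) on the same scale.

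The surroundings were followed in bins of the same chromosome. In bins of 250 kb along chromosome 12, S354F lacked 25 of 35 WT peaks (71.4%) and 20 of 27 (74.1%) in the bins that make up the window. In the bin directly after it lacked 3 of 29 (10.3%), in the next 10 of 26 (38.5%) and in the other 4 bins after these 15.2% to 36.2%. The bin directly before held only 4 WT peaks, of which 1 was missing. Of the 43 WT peaks in the bin before that one, which reaches over Begain, 12 were missing (27.9%). Within the window S354F lacked 22 of 26 WT peaks from Meg3 to Mirg (84.6%) and 9 of the 18 before Dlk1 and after Mirg (50%). Every other mutant also lacked a larger share from Meg3 to Mirg than in these flanks. Their shares were 26.9% (H455R) to 57.7% (R339Q) from Meg3 to Mirg. In the flanks they were 5.56% (R377C, R448Q) to 33.3% (R339Q, Q418R). These shares were not matched for peak strength. Over the whole of chromosome 12 S354F lacked 25% of WT peaks, R339Q 36%, K365T 32.7%, Q418R 30.9%, R448Q 30.4%, R377H 27.1%, R342C 26.6%, R377C 21.8% and H455R 20.2%. R339Q, the mutant with the next highest share in the window, had 51.4% and 51.9% in the same bins and 27.6% in the bin after.

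**Figure D4:**
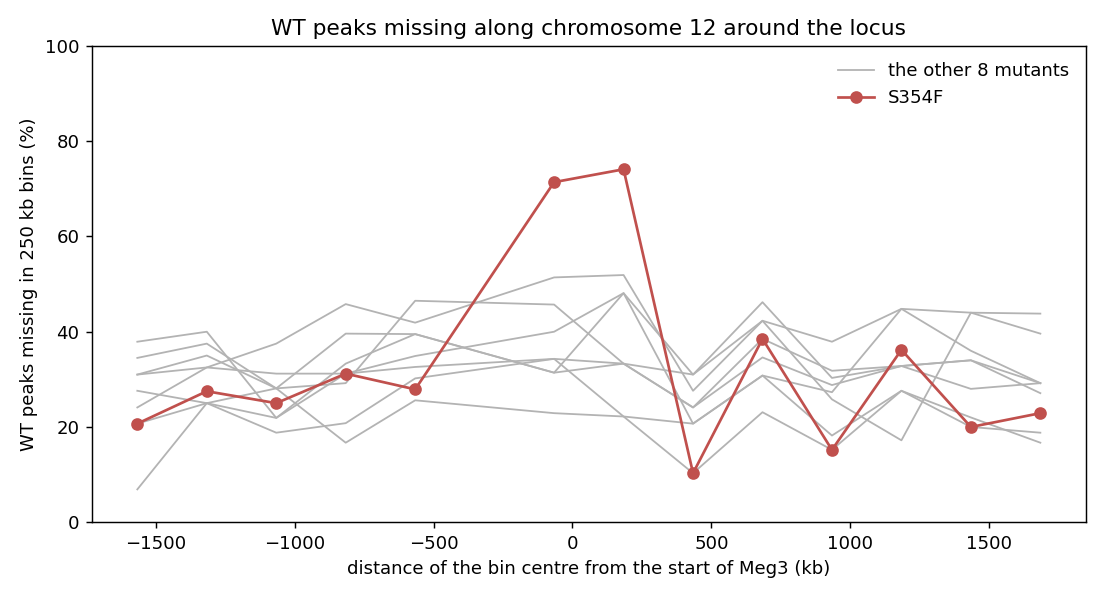
Share of WT peaks missing (y axis, percent) in bins of 250 kb against the distance of the bin centre from the start of Meg3 (x axis, kb); red, S354F; grey, the other 8 mutants. A bin with 4 WT peaks just before the window is left out; the 2 bins of the window stand at 71.4% and 74.1% in S354F and the bin after them at 10.3%.

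Cut into 500 kb tiles set so that the window was 1 of them, the genome had 2192 tiles with at least 30 WT peaks. For S354F the tile of the locus had the highest share of missing WT peaks, 72.6%, and the next tile had 55.3%, with a median over tiles of 23.6%. The same tile ranked 43 in R339Q (median 35.2%), 57 in K365T (28.1%), 138 in H455R (19%), 182 in R448Q (27.7%), 257 in R342C (25.5%), 375 in Q418R (30.7%), 387 in R377H (25.5%) and 736 in R377C (20%). In all 9 mutants the locus lay above the median tile, but the tile shares were not matched for peak strength. Among the weaker 50% of WT peaks, R377C lacked 32.6% in the locus (against 38.3% over the genome) and Q418R 48.8% (against 53.8%). R342C and R377H lacked 44.2% each (against 46.8% and 46.2%). In the other mutants this share was higher in the locus. Among the stronger 50% it was lower in R377C, R377H and H455R and higher in the others. The tile ranks describe the lists and include the values for which the locus was chosen.

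**Figure D5:**
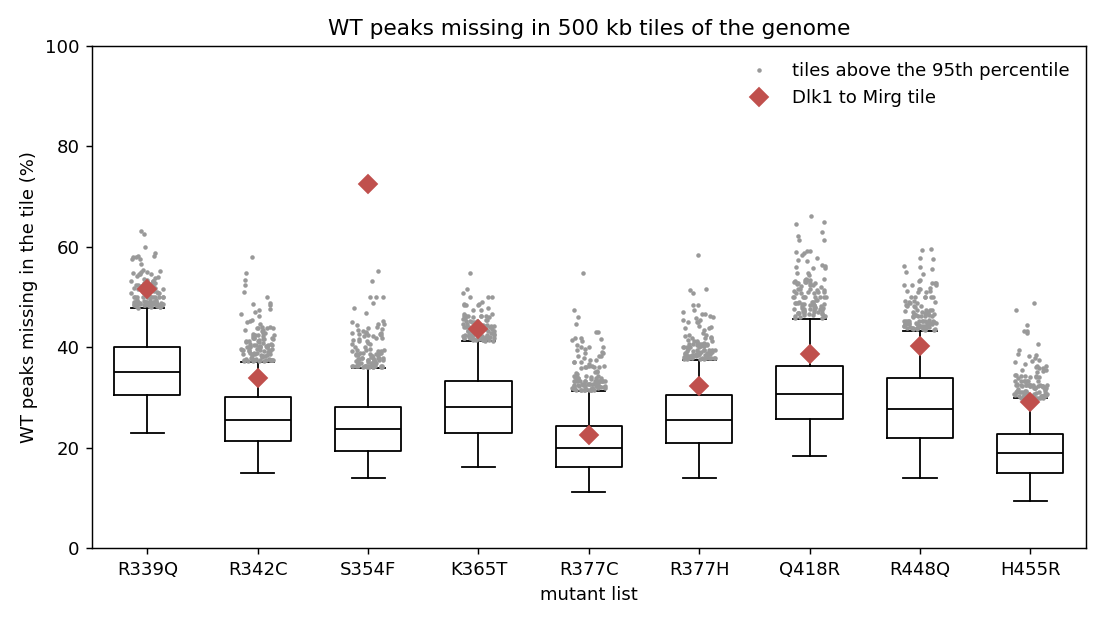
Share of WT peaks missing (y axis, percent) in 2192 tiles of 500 kb for each mutant list (x axis); boxes give the quartiles and median, whiskers the 5th and 95th percentiles, grey points tiles above the 95th. The red diamond, the tile of the locus, is the highest tile in S354F at 72.6%.

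Other imprinted clusters were counted in the same way. In 11 stretches, each taken with 50 kb on both sides, S354F lacked 58 of 226 WT peaks (25.7%, near the 24.3% of all WT peaks), from 0 of 5 at Snrpn to Ube3a to 9 of 24 (37.5%) at Igf2r with Airn and 6 of 16 (37.5%) at Mest to Copg2. At H19 to Igf2, where CTCF binds the unmethylated maternal control region, 1 of 7 was missing, and at Dio3, the other paternally expressed gene of the chromosome 12 domain, 4 of 16. The other genes of the domain, Begain, Wdr25, Yy1, Dio3 and Dio3os, had a gene-end peak in all 10 lists. The peak at Dio3 stood at 54.3 in S354F, 57 in WT and 45.5 (K365T) to 62.8 (R377H) in the other mutants.

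Genes whose products place or read imprints were examined at their annotated ends. Of 17 such genes, 15 had one in WT, K365T and H455R, 14 in R339Q, S354F, R377C and R377H, 13 in Q418R and R448Q and 12 in R342C. The share of all 21631 protein-coding genes with such a peak was 71.6% in WT, 70.9% in H455R, 70.8% in R377C, 70.7% in R448Q, 70.3% in R377H, 70.1% in S354F, 69.9% in R342C, 69.7% in K365T, 68.7% in Q418R and 68.3% in R339Q. Zfp57, which encodes the zinc finger protein that keeps methylation at imprinted control regions, stood at 47.9 in S354F and 57.3 in WT, and its cofactor Trim28 at 83.5 and 89.2. Dnmt3l, which encodes a cofactor of new DNA methylation, had none in R342C, R377H and Q418R, and stood at 65.2 in S354F. Aff3, whose product binds the control region of this locus, had a weak peak in WT (7.03), K365T (4.83) and H455R (4.63) only. In S354F it was the only gene of the 17 that had a peak in WT and none in the mutant.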

How the data were processed

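The data are peak lists of Omni-ATAC-seq, 1 per genotype from 2 replicates. Per the submitters' processing notes, Trim Galore, Bowtie2, MACS2 and deepTools were used on mm10; versions, read shifting, duplicates and thresholds were not given in the sources used here. Values deposited by the authors with the peaks have the range and spacing of a MACS2 fold enrichment (ratio), a reading no header states. They served to rank and filter peaks within a list and to derive background coverage. Read totals were not used; in each list 28.9% to 33.8% of values lay on whole multiples of a step, and background coverage is 1/step minus 1.

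From the lists, peaks overlapping the window were taken, a peak was found in another list with at least 1 bp of overlap, and peaks of all lists were joined where they overlapped. Percentiles are ranks within a list. Stretches follow RefSeq gene bounds (GRCm38.p6), with peaks placed by their midpoint. Overlap counting was tested on simulated lists. Python 3.11.15, pandas 2.3.3 and SciPy 1.17.1 were used. The labels do not say whether replicates were separate cultures.

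Members, gene lists, stretches and the naming rule were chosen with earlier results of these data known. Named peaks lie within 1 kb of a member's annotated end, between Dlk1 and Meg3 in the stronger 50% of WT peaks, are missing from S354F alone or from all 9 mutants, are among the 5 strongest WT peaks, are held by at least 5 mutants and not WT, or are kept by S354F between Meg3 and Mirg. Other peaks named were chosen after their values were seen. Alternatives were another overlap, lists of equal size, stronger peaks only, other window edges and a joining distance.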

Additional observations from a re-analysis of the deposited data

How the results depend on the processing

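No paired analysis was possible because the deposited lists combine both replicates, and for the same reason leaving out a replicate was not run. S354F had the highest share of missing WT peaks under all 6 settings, 63.2% to 81.8%, and R339Q was highest or equal highest of the other mutants at 21.1% to 59.1%. Over 38 results, 94 of 125 alternative values stayed within the interval or within 1.5 times the main value and 31 moved. With the window from Dlk1 to Mirg, which is shorter, the peaks numbered 19 (R339Q), 28 (R342C), 9 (S354F), 22 (K365T), 35 (R377C), 31 (R377H), 29 (Q418R), 20 (R448Q) and 33 (H455R), and R448Q lacked 54.5% of WT peaks. With lists of equal size, WT had 39 peaks, and the share missing was 35.9% for R339Q and 23.1% for K365T and Q418R. Among the stronger 50% of WT peaks, which are found more often in any list, the shares missing were 21.1% (R339Q, R448Q), 10.5% (R342C, K365T), 15.8% (Q418R), 5.26% (R377H) and 0% (R377C, H455R), and for S354F 0% in Meg3 and after Mirg, each with 1 peak counted. Among stronger mutant peaks, 6.25% lacked a WT overlap in R377H and 0% in R339Q, R342C, S354F, R377C, Q418R and H455R. The cause of the other moves was not tested. With no read totals, whether a missing peak was closed or fell below the calling threshold was not detectable.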
